A study of Mus musculus with 6 samples.

Results

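The 39 genes described here encode surface receptors and adhesion molecules of myeloid cells, together with close partners such as the integrin activator Fermt3 and the signalling adaptors Fcer1g and Tyrobp. They were taken by gene symbol from a table of 24012 mouse genes, and all 39 were found. Chromatin immunoprecipitation followed by sequencing measured di- and trimethylation of histone H3 at lysine 79 (H3K79me2 and H3K79me3) in hematopoietic progenitor cells from mouse bone marrow. The cells had been transduced with a retrovirus carrying the leukemia fusion protein MLL-AF9, either WT or with the mutation D544R or D546R. All 3 genotypes therefore carry an MLL-AF9 transgene driven by a retrovirus, and the WT group is the fusion itself, not untransduced cells. There was 1 library for each genotype and mark, 6 in all, and the labels do not say whether both marks came from the same culture. The series title places the study around how much DOT1L is recruited to MLL-AF9, the level of H3K79 methylation this gives on target genes and the capacity to transform cells.

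Methylation of H3K79 is the work of the enzyme DOT1L, which is brought to genes by AF9 and related proteins that also take part in transcription elongation. H3K79 methylation spreads over the transcribed part of active genes from their start, so a gene with much of the mark is usually a transcribed one. MLL fusions keep a set of progenitor genes such as Hoxa9 and Meis1 under this mark. Many of the genes described here are switched on as a progenitor becomes a granulocyte, monocyte or macrophage, but the list is mixed and not all are particular to that step. Integrins attach the cell to vessel wall and matrix, Fc receptors bind antibody, Toll-like receptors and C-type lectins bind microbial molecules, and receptors with inhibitory cytoplasmic motifs restrain these responses.

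The libraries held 3558329 to 5993741 counts in H3K79me2 and 5207395 to 6652571 in H3K79me3, each count being a read assigned to a gene region in mm9. Counts were divided by a size factor per library, and differences are given as the log2 ratio of these normalised counts. The 2-fold rule used throughout asks for a difference of at least 2-fold, a 95% counting interval without the value of no change, and at least 100 normalised counts on average over the 3 libraries of a mark. This is a rule of size and counting error, not a significance test, because 1 library per group leaves the spread between cultures unknown. The number of reads per independent DNA fragment was estimated at 3.26 to 4.78 in H3K79me2 and at 8.12 to 18.6 in H3K79me3, the highest value being the D546R library. The interval printed beside a ratio, called the fragment interval, is widened for this and still covers counting error only. Since whole cell populations were sampled, a larger share of cells that carry the mark on a gene and more of the mark per cell cannot be told apart.

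The region counted for a gene runs from 2 kb before its start to its end, per the file header. A comparison of distances between neighbouring genes placed the extra 2 kb differently for genes on the minus strand. Of 6801 such pairs, 5613 (82.5%) had a region that ended within 50 bases of the start site of the minus-strand gene. Of the 29 genes described here whose strand was known, 19 are on the minus strand. For most of them the stretch upstream of the start was probably not counted, though they were not checked one by one. Of all 39 regions, 9 overlap another gene's region. Ceacam1 lies wholly inside 4732471J01Rik, Cd300lf lies wholly inside Rab37, and Tyrobp shares 32.3% of its region with Hcst. Counts in shared stretches cannot be given to one gene. The same holds for reads shared by near-identical relatives such as Lilrb4 and Gp49a, the Fcgr genes, the Fpr genes, the Clec4a genes and the Ceacam genes.

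The genes carried more H3K79me2 per kilobase than most genes in every library. In the WT library their median density stood at the 80.8th percentile of all genes, in D544R at the 79.9th and in D546R at the 85.8th. For H3K79me3 the medians stood at the 73.4th, 77.0th and 78.5th percentile. As a check of the labelled cell type, 12 stem and progenitor markers had a median at the 73.7th percentile of H3K79me2 density in the WT library. Lymphoid markers stood at the 25.4th percentile there, erythroid and megakaryocyte markers at the 27.7th and mast cell and basophil markers at the 41.1st.

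Per kilobase, Tlr4, the receptor for bacterial lipopolysaccharide, had the highest H3K79me2 density of the 39 in the WT library, at 10.9 times the median of 32 genes that blood cells do not use. Ms4a3, a membrane protein of granulocyte and monocyte progenitors, followed at 9.87 times, and Fcgr2b and Fcer1g stood at 7.44 and 7.39 times. These 4 densities come without replicates, and the order of near neighbours among them is not established. At the other end, Fcgr4 stood at 0.60, Msr1 at 1.20, Ankrd22 at 1.22 and Itgal at 1.23 times. Of the 39, 27 had at least 2 times the level of the unused genes in the WT library, 27 in D544R and 31 in D546R. Over all genes the shares at that level were 31.6%, 33.3% and 42.7% in the same order. The same reference lay lower in the D546R library, where the median of all genes was 1.71 times it against 1.37 times in WT, so multiples of it are not compared between libraries.

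**Figure D1:**
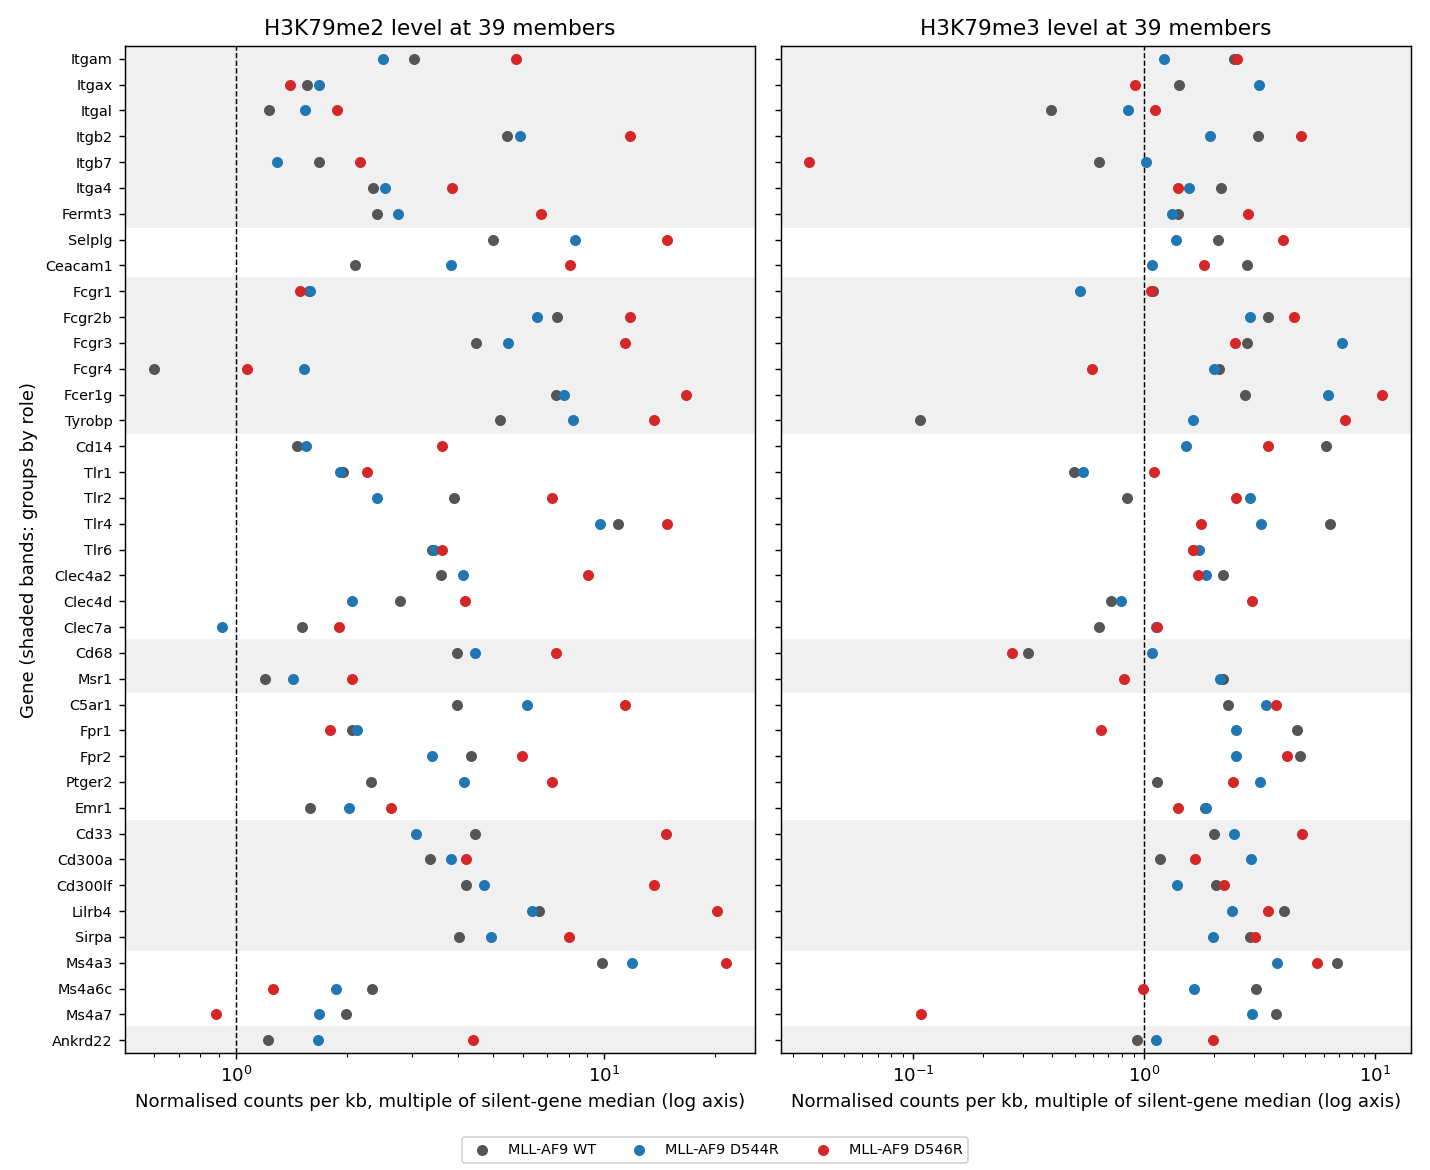
H3K79me2 (left) and H3K79me3 (right) density of the 39 genes, ordered by role. Each point is 1 library, drawn as normalised counts per kilobase over the median of 32 genes that blood cells do not use, on a log axis; Tlr4 and Ms4a3 stood highest for H3K79me2 in the WT library, at 10.9 and 9.87 times.

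In H3K79me2, D546R cells had more of the mark than WT cells on 9 of the 39 genes and less on none by the 2-fold rule. Of the 8905 genes with a mean of at least 100, 0.887% were past the rule on the higher side and 0.865% on the lower side. The 9 were Fermt3, Selplg, Ceacam1, C5ar1, Ptger2, Cd33, Cd300lf, Lilrb4 and Ankrd22, and all 9 were also past it with the fragment interval. A mean of at least 100 was reached by 23 of the 39. The mean is taken over all 3 libraries, so a gene can reach it through 1 high library or miss it by being low in 1: Cd33, with a mean of 101, reached it through D546R. With a minimum of 10 in its place, the same 9 were higher and Ms4a6c and Ms4a7 were lower, where 856 genes were higher and 1431 lower of 20308. Over all 39 the median log2 ratio was 0.48, with 29 above 0 and 10 below. Over all genes with a mean of at least 10 the median was 0.01, with 50.9% above 0 and 49.1% below. The median was 0.07 over the 8905 genes with a mean of at least 100, and 0.36 over 8 reference genes, of which Tbp (-0.80) and Hprt (-0.36) lay below 0 and Actb (0.85) highest. Summed over the 39 genes, normalised counts were 5602 in WT, 5972 in D544R and 8488 in D546R.

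In mm9 the counted regions of the 9 are spread over 6 chromosomes. On chromosome 7 lie Ceacam1 chr7:26244720-26262644, C5ar1 chr7:16830091-16844889 and Cd33 chr7:50780825-50788541, and on chromosome 19 Fermt3 chr19:7071447-7093959 and Ankrd22 chr19:34195038-34240531. The others are Selplg chr5:114265806-114280510, Ptger2 chr14:45605785-45623495, Cd300lf chr11:114975527-114995306 and Lilrb4 chr10:51208780-51216417. Each region spans the whole gene, exons and introns together.

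The promoters of these genes may be read in the RefSeq table for build GRCm38.p6, which held a window for 29 of the 39 and for 7 of the 9. The windows below are the 150 bases before the start, written 5′ to 3′ on the gene's strand. They show the 7 genes that were higher in D546R and had a window, and Ms4a7, which had the lowest ratio of the 39. Capitals mark GAGGAA, the core bound by the myeloid factor PU.1, or TTGCNNAA, a pattern bound by C/EBP factors, each searched on both strands, so that GAGGAA on the other strand reads TTCCTC.
Fermt3 (chr19:7019470-7019619, minus strand): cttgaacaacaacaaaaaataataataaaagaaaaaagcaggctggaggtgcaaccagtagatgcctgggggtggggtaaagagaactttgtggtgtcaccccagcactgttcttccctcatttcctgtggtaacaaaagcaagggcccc
Ceacam1 (chr7:25477626-25477775, minus strand): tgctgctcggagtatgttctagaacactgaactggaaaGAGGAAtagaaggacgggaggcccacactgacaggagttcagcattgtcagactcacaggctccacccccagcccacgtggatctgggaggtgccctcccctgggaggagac
C5ar1 (chr7:16259339-16259488, minus strand): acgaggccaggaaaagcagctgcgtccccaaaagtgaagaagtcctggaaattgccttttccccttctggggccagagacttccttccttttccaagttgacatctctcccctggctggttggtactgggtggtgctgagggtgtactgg
Ptger2 (chr14:44987961-44988110, plus strand): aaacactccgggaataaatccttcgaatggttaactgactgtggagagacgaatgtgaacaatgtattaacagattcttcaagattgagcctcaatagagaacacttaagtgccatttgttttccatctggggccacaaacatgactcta
Cd33 (chr7:43533172-43533321, minus strand): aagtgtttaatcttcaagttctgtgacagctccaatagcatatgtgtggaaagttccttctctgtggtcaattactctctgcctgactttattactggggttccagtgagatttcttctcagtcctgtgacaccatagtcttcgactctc
Cd300lf (chr11:115133993-115134142, minus strand): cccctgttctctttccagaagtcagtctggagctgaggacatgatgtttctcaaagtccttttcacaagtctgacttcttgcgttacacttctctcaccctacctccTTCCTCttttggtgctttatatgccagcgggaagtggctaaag
Ankrd22 (chr19:34166042-34166191, minus strand): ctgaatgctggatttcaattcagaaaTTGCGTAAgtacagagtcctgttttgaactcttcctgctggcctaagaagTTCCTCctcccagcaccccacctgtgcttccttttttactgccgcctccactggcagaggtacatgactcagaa
Ms4a7 (chr19:11336147-11336296, minus strand): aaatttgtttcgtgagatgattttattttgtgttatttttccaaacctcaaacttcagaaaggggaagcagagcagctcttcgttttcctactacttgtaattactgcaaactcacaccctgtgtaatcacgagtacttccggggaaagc
In Ceacam1 the GAGGAA match begins 112 bases before the start, in Cd300lf 43 bases and in Ankrd22 74 bases before it, and Ankrd22 also holds TTGCNNAA 124 bases before it. The other 5 stretches hold neither, though beyond them Cd33 has GAGGAA 226 bases before the start, Ptger2 has TTGCNNAA 39 bases after it and Ms4a7 has GAGGAA 43 bases after it. Over the full window of 250 bases before to 50 after the start, GAGGAA was in 17 of 29 genes (58.6%) and in 28.3% of 27025 promoters. TTGCNNAA was in 7 of 29 (24.1%) and in 10.8% of all promoters, and TATAAA, the TATA box core, in 5 (17.2%) and in 14.2%. Of the 7 genes past the rule with a window, GAGGAA was in 4 and TTGCNNAA in 2, and of the other 22 members with a window GAGGAA was in 13 and TTGCNNAA in 5. A match is a description of these letters and not a binding site.

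Among the integrins and their activator, Fermt3 was past the rule in H3K79me2. Fermt3 encodes the kindlin of blood cells, which switches integrins to their binding state, and its normalised counts were 115 in WT, 126 in D544R and 245 in D546R. The D546R library alone was high, 2.13-fold over WT (log2 ratio 1.09, fragment interval 0.41 to 1.77). Itgb2, the beta chain shared by the leukocyte integrins, had normalised counts of 432, 448 and 704 in the same order and a log2 ratio of 0.70 (0.34 to 1.07). Itgam, the alpha chain of the complement receptor integrin of granulocytes and macrophages, had 373, 295 and 538 and a log2 ratio of 0.53 (0.12 to 0.94). Both were below 2-fold with a fragment interval above 0. Itga4, the alpha chain that binds Vcam1, had 400, 412 and 496 (log2 ratio 0.31, -0.11 to 0.72), and Itgal, the alpha chain that binds Icam1, had 107, 129 and 124 (0.22, -0.65 to 1.05). Itgax, the alpha chain common on dendritic cells, had 76.5, 79.2 and 52.4 and a ratio of -0.54 (-1.87 to 0.63).

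Both adhesion receptors outside the integrins were past the rule. Selplg, the ligand through which leukocytes roll on P-selectin, had normalised H3K79me2 counts of 155 in WT, 249 in D544R and 350 in D546R. Its ratio of D546R to WT was 1.17 (0.60 to 1.75), with D544R between the other libraries. Ceacam1, an adhesion receptor with inhibitory motifs, had 80.2, 140 and 233 and the highest H3K79me2 ratio of the 39, 1.54 (0.78 to 2.31). The gene around it, 4732471J01Rik, had a ratio of 0.69 and included the Ceacam1 reads.

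None of the Fc receptors and their adaptors was past the rule, although 5 of 6 had a ratio above 0. Fcgr3, an activating receptor for antibody, had normalised counts of 97.3, 114 and 187 and a ratio of 0.94 (0.18 to 1.71). Fcer1g, the signalling chain that activating Fc receptors share, had 106, 107 and 182 and a ratio of 0.78 (0.02 to 1.53). Fcgr2b, the inhibitory receptor of the family, had 276, 233 and 331 and a ratio of 0.26 (-0.25 to 0.77). Tyrobp, an adaptor for many activating receptors, lay just under a mean of 100 with 63.9, 96.7 and 127 and a ratio of 0.99 (0.04 to 1.94). Hcst, the adaptor gene that overlaps Tyrobp, had a ratio of 0.02, on raw counts of 49 in WT and 28 in D546R.

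The pattern recognition receptors had a median ratio of 0.12 over 8 genes, the nearest to 0 of the groups, and none was past the rule. Tlr4 had 393, 337 and 405 normalised counts and a ratio of 0.04 (-0.41 to 0.48). Clec4a2, a lectin receptor with an inhibitory motif, had 174, 191 and 331 and a ratio of 0.93 (0.36 to 1.49). Tlr2, which senses bacterial lipoproteins, had 60.9, 36.0 and 85.1, and Clec4d and Clec7a, lectins that sense fungi, had 89.9, 63.8 and 102 and 42.3, 24.7 and 40.6. Their D544R libraries were the lowest of the 3, with counting intervals that excluded no change from WT and fragment intervals that did not. Of the scavenger receptors, Msr1, which takes up modified lipoproteins, had 160, 183 and 209 and a ratio of 0.39 (-0.28 to 1.04).

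Of the 5 heptahelical receptors, C5ar1 and Ptger2 were past the rule. C5ar1, the receptor for the complement fragment C5a, had normalised counts of 125 in WT, 186 in D544R and 271 in D546R and a ratio of 1.12 (0.47 to 1.77). Ptger2, a receptor for prostaglandin E2, had 87.6, 150 and 206 and a ratio of 1.23 (0.46 to 2.00). In both genes the D544R library lay between WT and D546R. Emr1, the gene of the macrophage F4/80 antigen, had 428, 525 and 541 and a ratio of 0.34 (-0.07 to 0.73).

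The paired and inhibitory receptors held 3 of the 9 genes and had a median ratio of 1.21 over 5 genes. Cd33, a sialic acid receptor, had normalised counts of 72.8 in WT, 48.3 in D544R and 183 in D546R and a ratio of 1.33 (0.51 to 2.17). Cd300lf, a lipid receptor with inhibitory motifs, had 177, 190 and 435 and a ratio of 1.30 (0.78 to 1.82), and Rab37 around it had a ratio of 0.68. Lilrb4, an inhibitory receptor of the immunoglobulin family, had 108, 98.7 and 249 and a ratio of 1.21 (0.52 to 1.90). Its near copy Gp49a was past the rule as well, at 1.05 (0.27 to 1.83). In these 3 members D546R stood above both other libraries, and in Cd33 the ratio of D544R to WT was -0.58, with an interval of -1.64 to 0.41 that included no change. Sirpa, which binds Cd47 and restrains phagocytosis, had 354, 414 and 534 and a ratio of 0.59 (0.17 to 1.01), and Cd300a, another inhibitory receptor, had 119, 130 and 113 and a ratio of -0.07 (-0.97 to 0.76).

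The 3 MS4A genes, which encode tetraspan membrane proteins, did not share a direction. Ms4a3 had 279, 322 and 461 normalised counts and a ratio of 0.72 (0.26 to 1.18). Ms4a6c had 73.5, 56.6 and 30.1 (-1.26, -3.07 to 0.15) and Ms4a7 had 66.1, 53.5 and 22.3 (-1.54, -3.71 to 0.06), the lowest ratios of the 39. Both had means below 100, and their fragment intervals included no change. Ankrd22, which encodes an ankyrin repeat protein, had 118, 155 and 322 and a ratio of 1.45 (0.82 to 2.08). The remaining 8 genes with a mean below 100, Itgb7, Fcgr1, Cd14, Tlr1, Tlr6, Cd68, Fpr1 and Fpr2, had ratios from -0.58 to 0.91. Fcgr4, an activating antibody receptor, had raw counts of 22, 39 and 17, with D544R the highest (ratio to WT 1.28, -0.28 to 3.08).

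**Figure D2:**
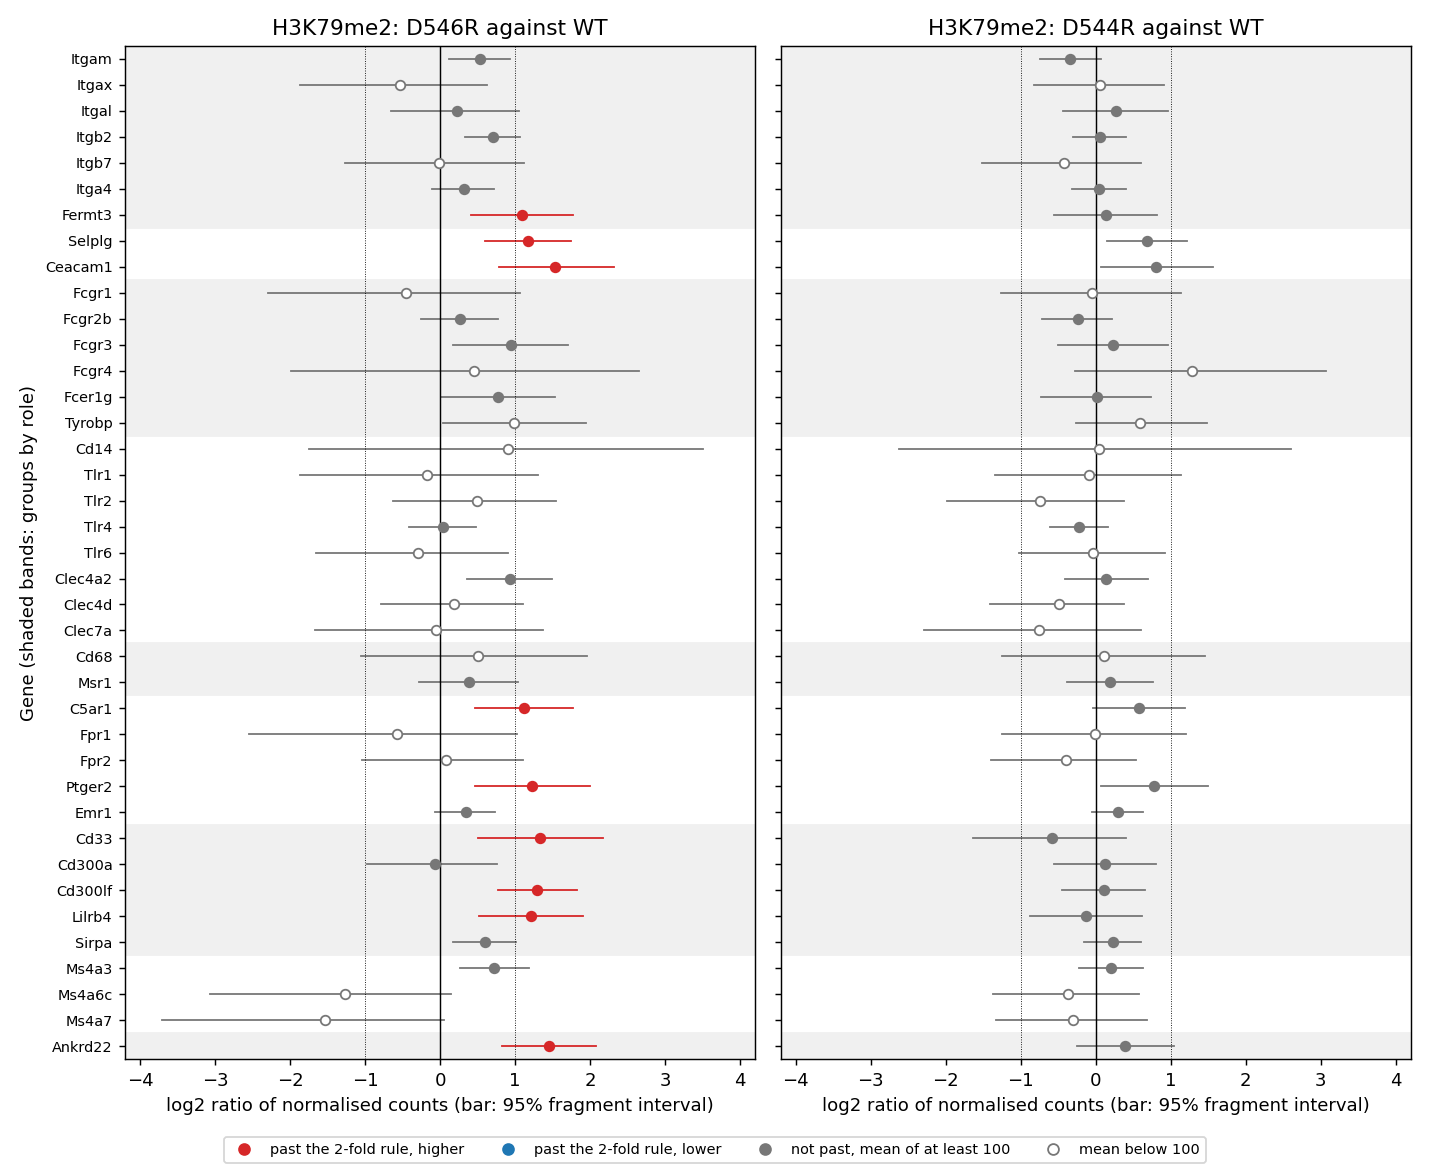
H3K79me2 log2 ratios of D546R (left) and D544R (right) to WT for the 39 genes, ordered by role. Points are ratios of 1 library to another, bars are fragment intervals, open points have a mean below 100 and dotted lines mark 2-fold; 9 genes are past the rule in D546R, all higher, and none in D544R.

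In D544R cells H3K79me2 on these genes stayed near the WT level. None of the 39 was past the rule in either direction, where 0.0337% of all genes tested were past it on the higher side and 0.0112% on the lower. The median ratio was 0.05, with 23 genes above 0 and 16 below, where 50.3% of all genes lay above and 49.7% below. The ratios furthest from 0 among genes with a mean of at least 100 were those of Ceacam1 at 0.80 (0.07 to 1.56), Ptger2 at 0.78 and Selplg at 0.68 (0.15 to 1.22), each with a fragment interval above 0. The comparisons of D546R and D544R with WT share the WT library, so their ratios are not independent of each other. Against D544R directly, D546R was past the rule on the higher side in 4 genes, Cd33 (1.91), Lilrb4 (1.33), Cd300lf (1.19) and Ankrd22 (1.05), and on the lower side in none. Of all genes tested, 0.775% were past the rule on the higher side there and 0.876% on the lower, and the median over the 39 was 0.47. For Ceacam1, Ptger2, Selplg and C5ar1 the ratios of D546R to D544R were 0.74, 0.45, 0.49 and 0.54.

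H3K79me3 gave a mixed picture in D546R cells. By the 2-fold rule 6 of the 39 were higher than in WT and 4 were lower, where 6.94% of the 10824 genes tested were past it on the higher side and 8.92% on the lower. A mean of at least 100 was reached by 25 of the 39. With the fragment interval 4 were higher and 3 lower, beside 4.26% and 5.55% of all genes. The median ratio over the 39 was 0.30, where that over all genes with a mean of at least 10 was -0.01. With the unused genes as the reference for scaling it turned to -0.07, where all genes moved to -0.38, so only the position of the 39 relative to all genes is described.

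The 6 with more H3K79me3 were Itgal, Fermt3, Selplg, Fcer1g, Ptger2 and Ankrd22. Fcer1g had normalised counts of 61.1 in WT, 170 in D544R and 294 in D546R and a ratio of 2.25 (0.89 to 3.86). Itgal had 53.0, 140 and 185 and a ratio of 1.79 (0.21 to 3.61). Ankrd22 had 139, 207 and 366 and a ratio of 1.40 (0.38 to 2.48). In these 3 genes D544R lay between WT and D546R. Fermt3 had 104, 119 and 256 (1.30, 0.09 to 2.58) and Selplg 101, 81.5 and 237 (1.23, -0.01 to 2.54), with D546R alone high. Ptger2 had 66.2, 226 and 173 (1.38, -0.14 to 3.03), with both mutants above WT and D544R the higher of them. Selplg and Ptger2 were past the rule by the counting interval only. Itgal and Selplg, with means of 126 and 140, reached the minimum mean through the high D546R library.

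The 4 with less H3K79me3 in D546R were Tlr4, Msr1, Ms4a6c and Ms4a7. Tlr4 had normalised counts of 355 in WT, 219 in D544R and 122 in D546R and a ratio of -1.55 (-2.90 to -0.40), whereas its H3K79me2 ratio was 0.04. Msr1 had 456, 537 and 207 and a ratio of -1.14 (-2.15 to -0.23). Ms4a7 had 192, 185 and 6.85 and a ratio of -4.73 (-16.45 to -1.26), resting on 8 raw counts in D546R. Ms4a6c had 149, 97.5 and 59.0 and a ratio of -1.33 (-3.47 to 0.36), past the rule by the counting interval only. With a mean of 102, Ms4a6c reached the minimum mean through the WT library. The MS4A genes were thus the group with the lowest median in both marks, -1.26 in H3K79me2 and -1.33 in H3K79me3, over 3 genes.

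The other genes with a mean of at least 100 stayed under 2-fold in H3K79me3. Itgb2 had normalised counts of 383, 288 and 721 and a ratio of 0.91 (0.26 to 1.57), the only one of these with a fragment interval that excluded no change. C5ar1, with 112, 200 and 222, had a ratio of 0.99 (-0.25 to 2.26). Cd300a had 64.2, 194 and 111 (0.79), Fcgr2b 199, 202 and 314 (0.66) and Cd300lf 133, 110 and 177 (0.41). Sirpa had 390, 332 and 507 (0.38), Itgam 466, 283 and 590 (0.34) and Fcgr3 93.7, 296 and 103 (0.13). Fpr2, a formyl peptide receptor, had 126, 81.5 and 137 (0.12), and Ms4a3 had 301, 201 and 302 (0.00). Below 0 lay Clec4a2 with 164, 169 and 157 (-0.07), Emr1 with 764, 949 and 720 (-0.09) and Itga4 with 566, 499 and 449 (-0.33). Ceacam1, which had the highest H3K79me2 ratio, had 165, 78.0 and 131 H3K79me3 counts and a ratio of -0.33 (-1.74 to 0.95). Itgax had 108, 293 and 84.7 (-0.35), high in D544R only.

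Below a mean of 100 the H3K79me3 ratios spread furthest, on few counts. Tyrobp had raw counts of 2 in WT, 33 in D544R and 202 in D546R, a log2 ratio of 6.09 with a counting interval of 4.54 to 9.46 and a fragment interval of 1.82 to 30.71. Clec4d had raw counts of 35, 42 and 209 and a ratio of 2.31 (0.52 to 4.56). Itgb7, the beta chain of the gut homing integrin, had raw counts of 37, 64 and 3 and a ratio of -3.67 with a counting interval of -6.22 to -2.22 and a fragment interval that included no change. Fpr1, a receptor for bacterial formyl peptides, had 140, 83 and 29 and a ratio of -2.50 (-6.33 to -0.21). Of the others, Cd33 (1.55), Tlr2 (1.84), Tlr1 (1.42), Clec7a (1.13), Fcgr4 (-1.51) and Cd14 (-0.54) had counting intervals that excluded no change and fragment intervals that did not. Fcgr1 (0.27), Cd68 (0.04), Tlr6 (0.30) and Lilrb4 (0.07) had counting intervals that included it.

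**Figure D3:**
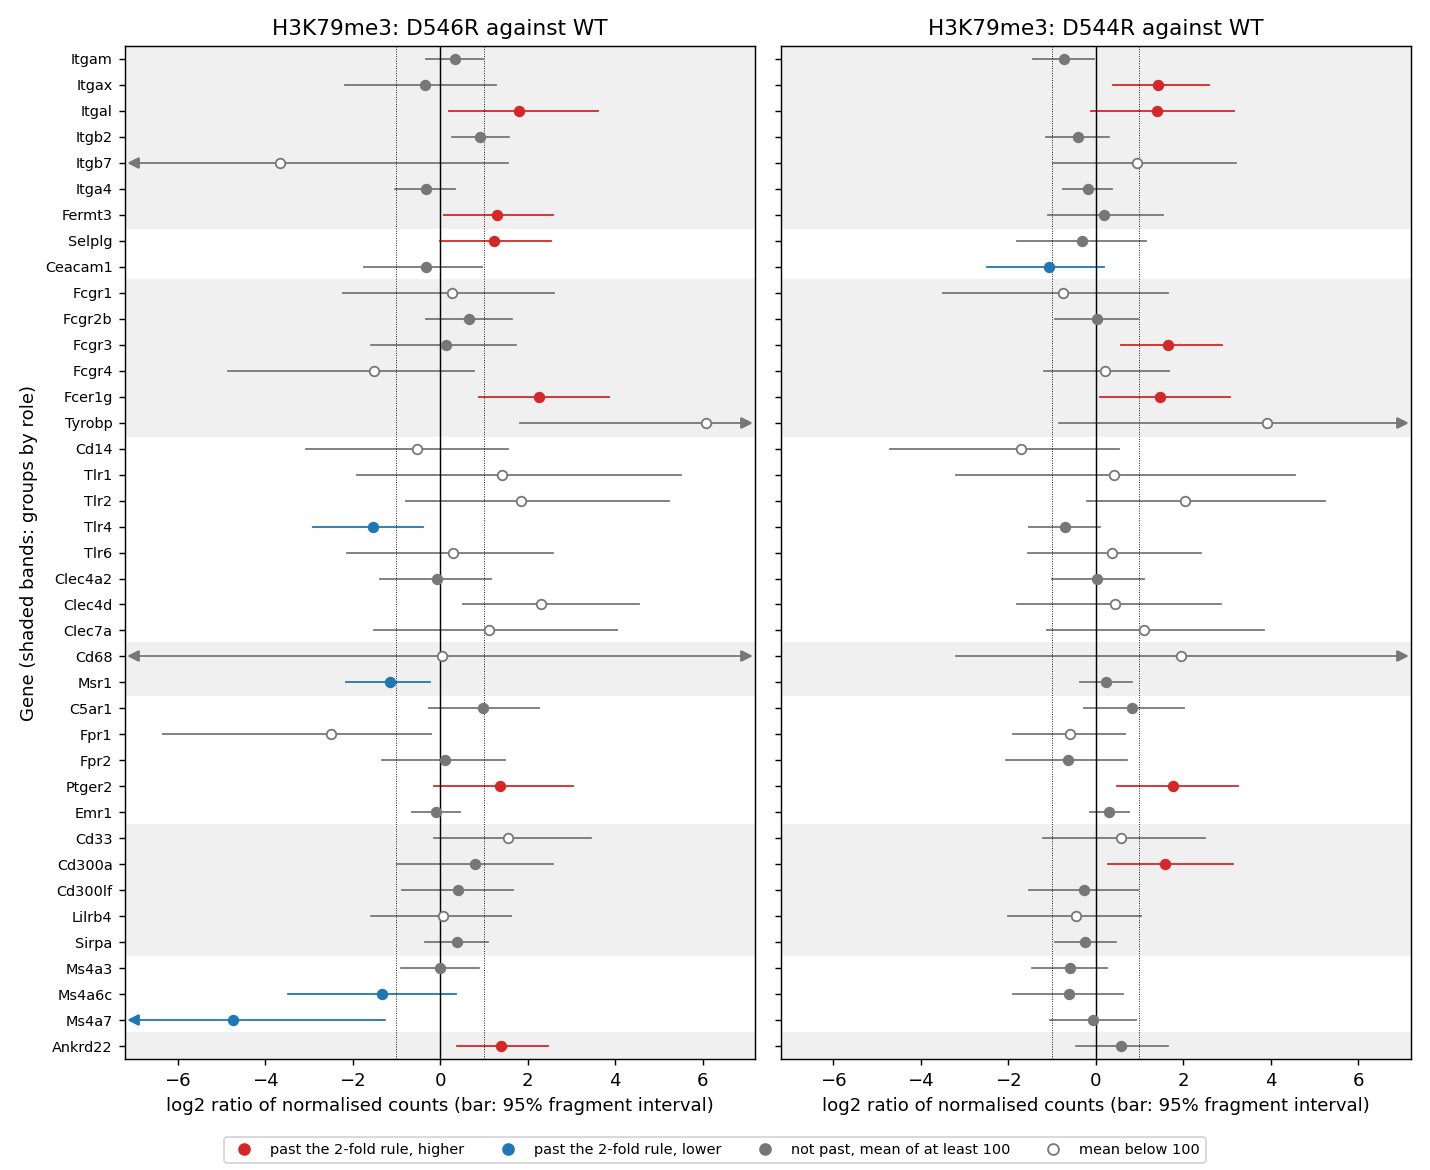
H3K79me3 log2 ratios of D546R (left) and D544R (right) to WT for the 39 genes, drawn as for H3K79me2; arrowheads mark bars that run past the axis. In D546R 6 genes are past the rule higher and 4 lower; the bars are wider than in H3K79me2, since the H3K79me3 libraries held an estimated 8.12 to 18.6 reads per fragment.

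In D544R cells 6 of the 39 genes had more H3K79me3 than in WT and 1 had less, where 4.36% and 3.02% of all genes tested were past the rule. The 6 were Ptger2 (1.76, 0.49 to 3.26), Fcgr3 (1.65, 0.58 to 2.88), Cd300a (1.59, 0.27 to 3.13), Fcer1g (1.47, 0.10 to 3.07), Itgax (1.43, 0.41 to 2.58) and Itgal (1.39, -0.10 to 3.15), and the 1 was Ceacam1 (-1.07, -2.48 to 0.20). Fcgr3, Cd300a and Itgax, with means of 164, 123 and 162, reached the minimum mean through the high D544R library. Itgal, with a mean of 126, reached it through D546R. With the fragment interval 5 were higher, without Itgal, and none lower, beside 2.92% and 1.65% of all genes. None of these 7 was past the rule for H3K79me2 in D544R, where the ratios were 0.78 for Ptger2, 0.27 for Itgal, 0.23 for Fcgr3, 0.13 for Cd300a, 0.05 for Itgax and 0.01 for Fcer1g. Ceacam1 had 0.80 there, opposite in sign to its H3K79me3 ratio. The median H3K79me3 ratio over the 39 was 0.22, or -0.11 with the unused genes as the reference, where all genes moved to -0.34. Against D544R, D546R was past the rule on the higher side in Selplg (1.53), Itgb2 (1.32), Fermt3 (1.10) and Itgam (1.05), and on the lower side in Ms4a7 (-4.67), Itgax (-1.78), Fcgr3 (-1.52) and Msr1 (-1.37). Of all genes tested, 5.77% were past it on the higher side and 8.31% on the lower.

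The marks were read in separate libraries. Fermt3, Selplg, Ptger2 and Ankrd22 were past the rule in D546R in both marks, all higher. Cd33 and C5ar1 had ratios of 1.55 and 0.99 in H3K79me3, short of the rule on the minimum mean and on the fold, whereas Cd300lf (0.41), Lilrb4 (0.07) and Ceacam1 (-0.33) lay nearer 0. Of 38 genes with a mean of at least 10 in both marks, 20 lay above 0 in both and 5 below 0 in both, together 65.8%, where the share was 50.4% over 19657 genes. Pearson's r between the marks was 0.51 across these 38 genes and 0.03 across all genes. Genes are not independent replicates, and both marks may come from 1 culture, so both values describe these libraries.

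**Figure D4:**
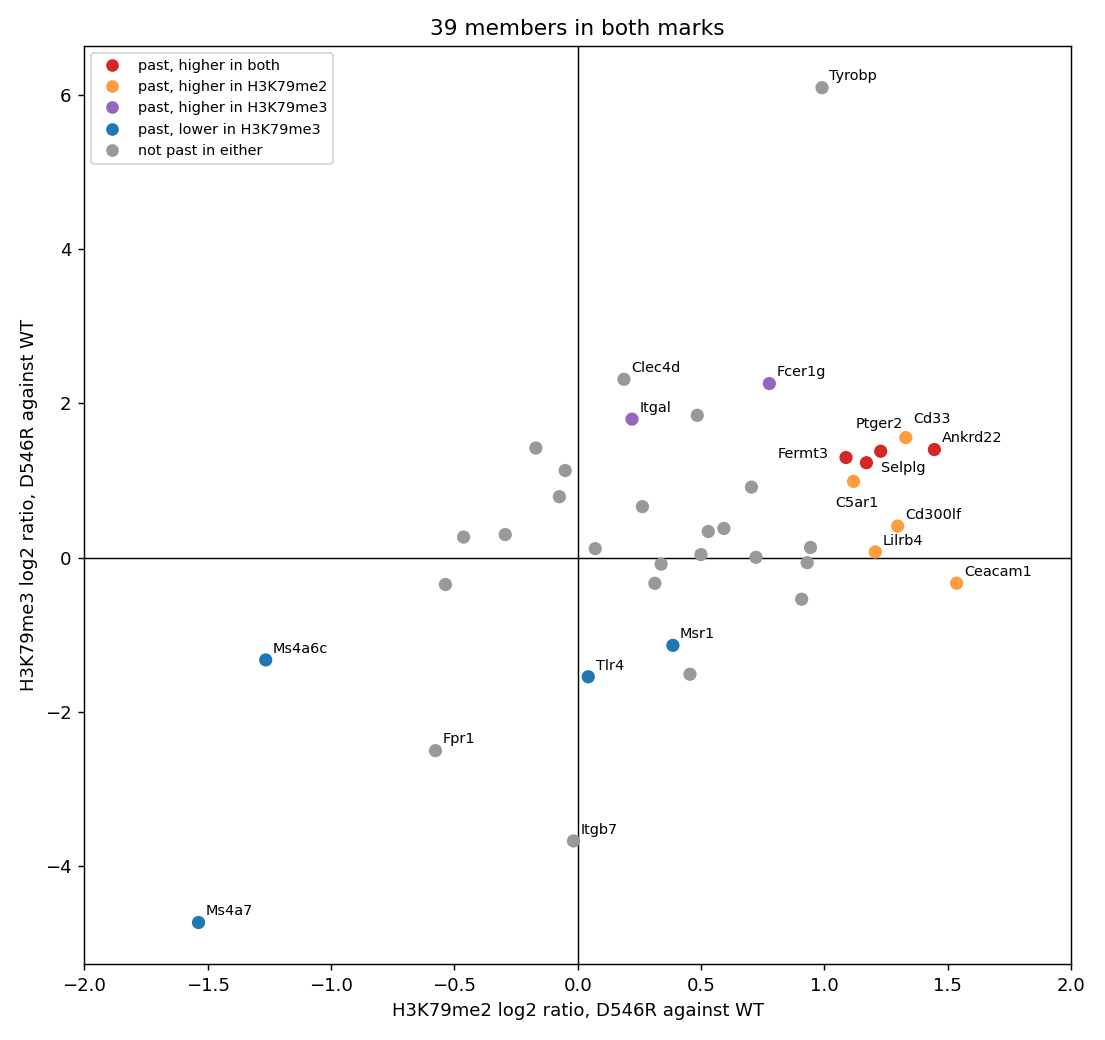
Log2 ratio of D546R to WT in H3K79me2 (horizontal) and H3K79me3 (vertical), 1 point per gene for the 39 genes. Fermt3, Selplg, Ptger2 and Ankrd22 sit past the rule in both marks at the upper right, Ms4a7 and Ms4a6c lie lowest on the horizontal axis, and Tyrobp, at 6.09 on the vertical axis, had 2 counts in WT.

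Signalling partners and other cell type markers were set beside these results. Of 32 integrin and adhesion partners, none was past the rule in H3K79me2 in D546R, and their median was 0.08. Of 30 partners in signalling through activating and inhibitory motifs none was past it, with 27 ratios above 0 and a median of 0.40, and of 28 partners of the Toll-like receptors none was, with a median of 0.27. In that order the lists had 23, 21 and 10 genes with a mean of at least 100 in H3K79me2. Of all genes tested there, 0.887% were higher and 0.865% lower, so none past the rule among so few is near that share. In H3K79me3, where 6.94% of all genes tested were higher and 8.92% lower, the adhesion partners held 4 higher genes, Vcam1 (2.10), Icam1 (1.61), Pecam1 (1.06) and Itga5 (1.03), and 2 lower, Itgae (-2.22) and Itgb1 (-1.70). The signalling partners held 1 higher, Clec5a (1.20), and 2 lower, Ly9 (-1.59) and Lair1 (-1.15), and the Toll-like receptor partners 1 higher, Tirap (1.27), and 1 lower, Tlr7 (-1.24). The 3 lists had 28, 20 and 11 genes with a mean of at least 100 there. With the fragment interval the adhesion partners held 3 higher and 2 lower, the signalling partners 0 and 1, and the Toll-like receptor partners 0 and 0. The shares of all genes were then 4.26% higher and 5.55% lower.

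The 12 stem and progenitor markers went the other way in H3K79me2. All 12 ratios of D546R to WT were below 0, and Hoxa7 (-5.85), Meis1 (-3.12), Hoxa10 (-2.77) and Hoxa9 (-2.49) were past the rule. The other 8, among them Kit (-0.11), Cd34 (-0.11) and Flt3 (-0.35), lay between -0.70 and -0.11. Their summed normalised counts were 7913 in WT, 9093 in D544R and 2257 in D546R, most of them from Meis1 in WT and D544R. Erythroid and megakaryocyte markers summed to 679, 666 and 740, lymphoid markers to 1776, 1748 and 1856, and mast cell and basophil markers to 362, 366 and 461. No gene of the erythroid, lymphoid and mast cell lists was past the rule in either mark, but few could be. In that order 1, 2 and 2 genes had a mean of at least 100 in H3K79me2, and 2, 4 and 1 in H3K79me3. In the D546R H3K79me2 library Gp9 was the only gene of these 4 lists with no count. In H3K79me3 the progenitor markers summed to 8581, 8180 and 3342, with Meis1 past the rule (-2.64). Their 12 ratios of D546R to WT were mixed in this mark, with 5 above 0, 7 below and a median of -0.32. Gp9, Pf4, Mcpt8, Tpsb2 and Prss34 had no count in the D546R H3K79me3 library. The part of cell composition in the results above was not tested.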

How the data were processed

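The deposited table holds whole-number read counts for each gene in 6 libraries without normalisation, taken over the gene and 2 kb before its start, per the file headers. Cells were cross-linked, their chromatin was sonicated, and sequencing runs of a library were merged, per the labels. Bowtie, bedtools, DESeq and the mm9 build are named in the submitters' processing notes, with roles and versions not given in the sources used here, and the same goes for any removal of duplicate reads. Input libraries were not used here.

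Size factors were medians of ratios over the 3 libraries of a mark, from 23029 genes (H3K79me2) and 20863 genes (H3K79me3) counted in all 3. The H3K79me2 factors were 1.35 (WT), 0.972 (D544R) and 0.764 (D546R), and the H3K79me3 factors 0.982, 0.872 and 1.17. A prior count of 0.5 was added before taking log2 ratios. Counting intervals were exact conditional binomial (Clopper-Pearson) at 95%. For fragment intervals, counts were first divided by the reads per independent fragment, which was estimated from how many of 4590 short autosomal regions (under 5 kb) were empty. Unreachable regions would also be empty, so the estimate is an upper one. The reads are not unique molecules, so every interval covers counting error only.

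The 39 genes, their roles, the partner and marker lists and the rules were chosen with earlier results of these data known. Every gene with a mean of at least 100 in a mark was to be given with its 3 values, and below that the genes whose counting interval excluded no change. The overlapping genes, the near copies, the gene clusters and the scaling on olfactory receptor genes were chosen after the values were seen. Promoters came from RefSeq (GRCm38.p6) and were matched by symbol, and no coordinate was moved between builds. A planned search of the proteins for tyrosine motifs was not run. The size factors, the 2-fold rule and the counting interval were tested on simulated counts with counting error only, without repeated reads of a fragment. The fragment interval was not simulated. The software was Python 3.11.15, numpy 2.4.6, pandas 2.3.3, scipy 1.17.1, R 4.3.3 and edgeR 4.0.16 (TMM factors only).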

Additional observations from a re-analysis of the deposited data

How the results depend on the processing

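No paired analysis was possible because each group held 1 library. For the 39 genes, the counts past the rule moved by no more than 1.5 times with total counts, TMM factors, size factors over all 6 libraries and a prior count of 2. Over all genes H3K79me2 calls moved more: those higher in D546R than in D544R went from 69 to 38 with total counts, and those higher than in WT from 79 to 128 with size factors over all 6 libraries. Medians and counts are given here for D546R against WT, D544R against WT and D546R against D544R.

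With 32 unused genes as the reference for scaling, the H3K79me2 medians were 0.62 for D546R against WT and 0.64 against D544R. In H3K79me3 they turned to -0.067 for D546R against WT and -0.11 for D544R against WT, and 3 genes were lower in D544R. The reference sums are low, and all genes moved with it: calls over all genes went from 77 lower and 79 higher to 46 and 197 in H3K79me2, and from 965 and 751 to 2000 and 291 in H3K79me3, for D546R against WT. With 1122 olfactory receptor genes the H3K79me2 median was 0.61, and all genes moved by 0.12.

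With a minimum mean of 10 in H3K79me2, 2 genes were lower in D546R than in WT, 1 higher in D544R than in WT and 1 lower in D546R than in D544R, and the counts were the same with no minimum. Over all genes a minimum of 10 gave 1431 lower, 398 higher and 1498 lower there. In H3K79me3 a minimum of 10 gave 7 lower and 12 higher for D546R against WT, 2 lower for D544R against WT, and 7 lower and 9 higher for D546R against D544R. Over all genes a minimum of 10 gave 3983 lower and 3864 higher of 21777 for D546R against WT, 2694 and 2929 for D544R against WT, and 4166 and 3532 for D546R against D544R. For the 39, no minimum gave 7 and 12, then 2 lower and 10 higher, then 8 and 9. With a minimum of 300, H3K79me2 had 0 higher in D546R against either library. H3K79me3 then had 1 lower and 0 higher for D546R against WT, 0 and 0 for D544R against WT, and 1 and 2 for D546R against D544R.

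A 1.5-fold threshold gave 15, 3 and 11 higher in H3K79me2, where over all 8905 genes it gave 792, 76 and 714. In H3K79me3 it gave 10 higher for D546R against WT, 5 lower for D544R against WT, and 7 lower and 12 higher for D546R against D544R, where over all 10824 genes it gave 1817 higher, 1242 lower, and 2052 lower and 1660 higher. With the fragment interval, 0 genes were lower in H3K79me3 in D544R. Against the median of all genes, the median density of the 39 was 2.22, 2.13 and 3.50 times in H3K79me2 (WT, D544R, D546R) and 1.47, 1.54 and 1.67 times in H3K79me3. The minimum changes which genes are tested, the threshold changes the size of difference asked for and the fragment interval is wider. The cause of the shifts with scaling was not tested. Spread between cultures could not be estimated, and in H3K79me3 genes with few counts have intervals too wide to order them.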

Other observations

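Several of the genes lie among relatives on the chromosome, and the relatives were read after the values of the 39 were seen. The 16 Ms4a genes on chromosome 19 include 3 of the 39. In H3K79me2 only 1 of the 16, Ms4a3, had a mean of at least 100 and could be past the rule. It was not past it in D546R against WT. Of the 16 ratios, 10 lay below 0 and 6 above. In H3K79me3 the minimum mean left 10 of the 16 open to the rule. Of these, 3 were lower in D546R than in WT by the rule, Ms4a7, Ms4a6c and Ms4a13. Among all genes tested in that comparison, 8.92% were lower. Ms4a7 and Ms4a6c belong to the 39 and their low values were already known, so only Ms4a13 was added by reading the relatives. Ms4a13 had raw counts of 246 in WT, 117 in D544R and 85 in D546R and a log2 ratio of -1.78 (fragment interval -3.62 to -0.33).

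The 10 Clec4 lectin genes had H3K79me3 ratios of D546R to WT above 0 in 9 cases. Of 21777 genes with a mean of at least 10, 10810 lay above 0 there. Only 4 of the 10 had a mean of at least 100, and Clec4f and Clec4a1 had 7 and 8 raw H3K79me3 counts in WT. Clec4b2, which is not one of the 39, was past the rule with raw counts of 119, 147 and 496 and a ratio of 1.80 (0.78 to 2.92). In H3K79me2 its raw counts were 148, 131 and 143 and its ratio was 0.77 (0.02 to 1.51). Clec4e, a sensor of mycobacterial lipid, had ratios of 0.25 in H3K79me2 and 0.06 in H3K79me3. Of the 8 Cd300 genes only 2 had a mean of at least 100 in H3K79me2 and 3 in H3K79me3, so the others could not be past the rule. Cd300lf was past it in H3K79me2, where 0.887% of all genes tested were higher, and none was in H3K79me3. Cd300lb, an activating relative below a mean of 100, had a H3K79me2 ratio of 1.31 (0.24 to 2.40).

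The nearest genes outside the 39 with a mean of at least 100 numbered 61 in H3K79me2. Their median ratio of D546R to WT was 0.20, and 1 was past the rule, Gp49a, on the higher side. In H3K79me3 there were 66, with a median of 0.01, 3 lower and 8 higher, where 8.92% of all genes tested were lower and 6.94% higher.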
